A study of Mus musculus with 17 samples.

Results

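The genes described here are 10 regulators of the exit from the cell cycle, out of 21938 protein-coding genes of the mouse annotation. They were chosen by name and role, with earlier results of these data known, and the rule used no H3.3 value. The 10 genes are the CDK inhibitors Cdkn1a and Cdkn1b, the D-type cyclins Ccnd1, Ccnd2 and Ccnd3, the kinase Cdk4, the pocket protein genes Rb1, Rbl1 and Rbl2, and Trp53. Chromatin came from lens epithelium (Epi) and lens fibers microdissected from newborn CD1 mice, an outbred strain, with no allele or treatment named in either group, and was immunoprecipitated with an antibody against the histone variant H3.3. Each compartment had 2 libraries, named as biological replicates in the labels, and each library held chromatin from pooled lenses. The labels give both P1 and P0.5 as the age, and 150 lenses per sample. For each gene, the window of its gene body with 5 kb on each side was searched for islands, the stretches of the mm10 genome that the authors' island caller found enriched in each library. An island carries a position, a length and a count of reads, and the share of the window under islands is called the covered share.

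Whether a cell divides again is settled late in the first gap phase of the cell cycle. D-type cyclins bind and activate Cdk4, which phosphorylates the pocket proteins Rb1, p107 (Rbl1) and p130 (Rbl2) and so frees the E2F factors that switch on genes of DNA replication. The inhibitors p21 (Cdkn1a) and p27 (Cdkn1b) hold cyclin-dependent kinases in check, and p53 (Trp53) is an activator of Cdkn1a. In the lens, the epithelium keeps a proliferating zone, and its cells leave the cell cycle as they elongate into fibers. H3.3 is deposited throughout the cell cycle, independently of DNA replication, and marks the bodies, promoters and enhancers of active genes.

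The libraries differed in size. The Epi libraries held 10389 and 14434 islands with 1331369 and 1430373 reads in them, and the fiber libraries 27059 and 35940 islands with 5041885 and 5359085 reads. The sequencing depth of the libraries is unknown, so no interval of counting error was given, and an empty window means that no island was called there. The median read density of islands was nearly the same in the 4 libraries, between 27.4 and 28.3 reads per kb. Windows of the 9 lens fiber marker genes, crystallins among them, had a mean covered share of 25.1% and 40.4% in Epi and of 97.7% and 97.9% in fibers. All 9 were higher in both fiber libraries, against 45.0% of all protein-coding genes. The 6 epithelial marker genes had 20.1% and 31.3% in Epi and 48.6% and 54.0% in fibers, so that no marker of the epithelium separated that compartment by coverage. Of these, 4 were higher in both fiber libraries, as were 3 of 4 macrophage genes. The direction at marker genes thus cannot by itself check the dissection. Defining genes of endothelium (Kdr, Tek), leukocytes (Ptprc), photoreceptors (Crx), pigment cells (Tyr, Tyrp1, Mlana) and cornea (Krt12) had no island in any library, whereas windows of the other 2 endothelial, 3 macrophage, 3 retinal, 1 pigment cell and 2 corneal markers held islands in at least 1 library. Mean covered shares in Epi and in fibers were 1.08% and 2.17% against 5.23% and 4.34% for the 4 endothelial genes, 19.6% and 29.4% against 38.9% and 40.7% for the 4 macrophage genes, 14.48% and 3.25% against 15.1% and 11.9% for the 4 retinal genes, 0% and 0% against 0.582% and 1.93% for the 4 pigment cell genes, and 4.57% and 0% against 3.29% and 11.4% for the 3 corneal genes. The part of such cells in the results was not tested. In pooled tissue, more cells with H3.3 at a site and more H3.3 per cell cannot be told apart.

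Promoters of 7 of the 10 genes, all but Ccnd1, Ccnd2 and Rb1, were matched in the RefSeq table of GRCm38.p6, with 2 starts each for Cdkn1a and Ccnd3, giving 9 promoters of 300 bases that run from 250 bases before the start to 50 bases from the start on. Those shown are the 2 of Cdkn1a, because libraries differ in which one lies in an island, that of Cdkn1b, covered in every library but Epi replicate 1, that of Cdk4, covered in every library, and that of Rbl1, the one with an E2F word. Capitals mark 4 motifs searched on both strands: the GC box GGGCGG, the CCAAT box, the E-box CACGTG and the E2F words TTTCCCGC, TTTCGCGC, TTTGCCGC and TTTGGCGC, with overlapping matches joined.
Cdkn1a first promoter (chr17:29090729-29091028, + strand): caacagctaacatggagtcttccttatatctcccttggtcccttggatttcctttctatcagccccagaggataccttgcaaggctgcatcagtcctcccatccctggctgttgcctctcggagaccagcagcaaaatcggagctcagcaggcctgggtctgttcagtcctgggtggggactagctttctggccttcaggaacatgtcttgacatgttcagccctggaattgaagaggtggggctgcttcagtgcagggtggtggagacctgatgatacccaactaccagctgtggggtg
Cdkn1a second promoter (chr17:29093519-29093818, + strand): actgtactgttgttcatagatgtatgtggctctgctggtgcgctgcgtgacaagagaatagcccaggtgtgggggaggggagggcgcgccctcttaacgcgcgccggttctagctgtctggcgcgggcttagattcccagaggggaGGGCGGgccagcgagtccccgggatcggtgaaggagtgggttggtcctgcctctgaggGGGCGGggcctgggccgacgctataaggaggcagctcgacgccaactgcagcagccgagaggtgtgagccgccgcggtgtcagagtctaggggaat
Cdkn1b promoter (chr6:134920151-134920450, + strand): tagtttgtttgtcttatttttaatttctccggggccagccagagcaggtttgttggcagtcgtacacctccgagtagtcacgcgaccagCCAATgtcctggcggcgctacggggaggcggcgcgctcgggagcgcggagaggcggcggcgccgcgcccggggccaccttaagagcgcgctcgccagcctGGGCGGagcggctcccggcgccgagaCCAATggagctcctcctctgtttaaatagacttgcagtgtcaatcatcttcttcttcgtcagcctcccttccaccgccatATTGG
Cdk4 promoter (chr10:127063285-127063584, + strand): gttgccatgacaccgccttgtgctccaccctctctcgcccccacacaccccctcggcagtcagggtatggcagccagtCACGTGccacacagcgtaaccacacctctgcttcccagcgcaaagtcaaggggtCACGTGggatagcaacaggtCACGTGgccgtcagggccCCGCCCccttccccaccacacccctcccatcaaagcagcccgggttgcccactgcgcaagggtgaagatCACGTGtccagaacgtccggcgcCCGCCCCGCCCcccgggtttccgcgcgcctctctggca
Rbl1 promoter (chr2:157204485-157204784, - strand): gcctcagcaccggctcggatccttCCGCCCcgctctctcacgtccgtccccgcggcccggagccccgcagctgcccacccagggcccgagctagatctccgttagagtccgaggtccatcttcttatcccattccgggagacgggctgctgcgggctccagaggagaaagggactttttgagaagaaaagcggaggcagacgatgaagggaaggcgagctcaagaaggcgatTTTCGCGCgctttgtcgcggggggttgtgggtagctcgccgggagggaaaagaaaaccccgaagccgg
The promoters of Cdkn1a are unlike each other. The first, at the outermost start of the gene, had 2 CpG dinucleotides, a ratio of observed to expected CpG of 0.0892 and none of the 4 motifs. The second, whose start lies 2793 bp farther into the annotated gene, had 23 CpG, a ratio of 0.786 and 2 GC boxes. The Cdkn1b promoter had a ratio of 1.04, with 1 GC box and 3 CCAAT boxes. That of Cdk4 had 4 E-boxes and 3 GC boxes. Over all 32807 promoters of this length in the table, the median ratio was 0.383, and a GC box was found in 35.6%, a CCAAT box in 37.4%, an E-box in 7.15% and an E2F word in 2.26%. A match of letters is a description of the window and does not show a bound factor.

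H3.3 islands covered the promoters in both fiber libraries and in part of the Epi libraries. All 9 promoters lay in full within an island in fiber replicate 1 and again in fiber replicate 2, whereas 4 of the 9 did so in each Epi library. Among all 32817 promoters of the table, 10.3% and 11.7% lay within an island in the Epi libraries and 30.6% and 34.5% in the fiber libraries. Measured at the outermost start in the GENCODE annotation, the base of the start lay in an island in both fiber libraries for 10 of 10 genes, against 31.4% of all protein-coding genes. In both Epi libraries this was so for 1 of 10, Cdk4, against 6.83% of all genes. The start was in an island in both fiber libraries and in neither Epi library for 4 genes, Cdkn1a, Ccnd2, Rb1 and Rbl2, against 15.6% of all genes. For the other 5 genes the Epi libraries differed from each other: the starts of Ccnd1, Ccnd3 and Trp53 were in an island in Epi replicate 1 alone, and those of Cdkn1b and Rbl1 in Epi replicate 2 alone. With 10389 islands taken from every library, the number with a start in an island in both fiber libraries was 3 when islands of the highest read density were kept and 4 when those of the highest read count were kept. The share over all genes was not counted with equal numbers of islands. Without Epi replicate 1 the Epi count was 3, against 14.6% of all genes, and without Epi replicate 2 it was 4, against 12.4%.

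**Figure D1:**
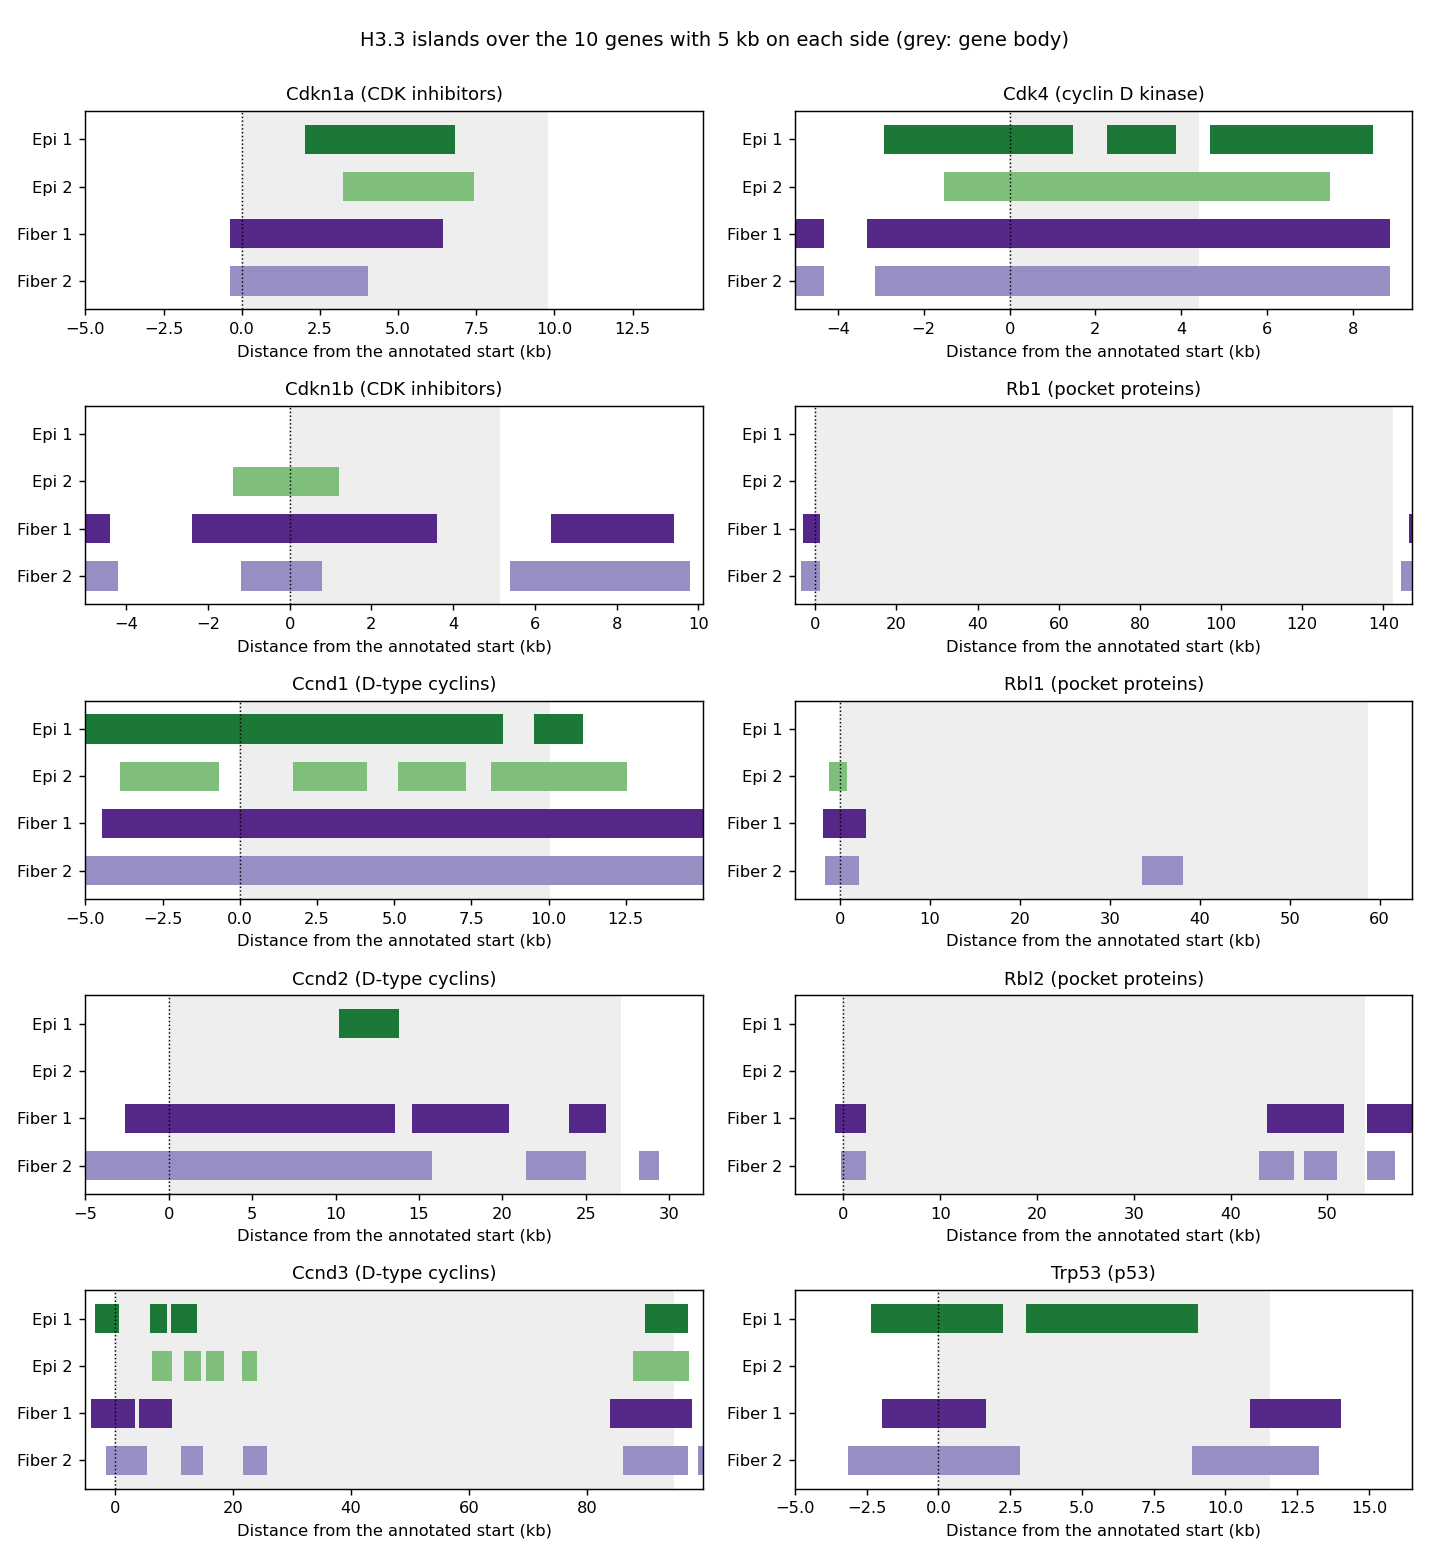
Islands called in the windows of the 10 genes, drawn to scale by distance from the annotated start in kb, with transcription to the right. Each panel is 1 gene with its own scale, each row 1 library, each bar 1 island, grey the gene body and the dotted line the start, which lies under an island in both fiber libraries in all 10 panels and in both Epi libraries only in that of Cdk4.

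The CDK inhibitors differed from each other. Cdkn1a (ENSMUSG00000023067.14, chr17:29090976-29100727, plus strand) had 1 island in each library, whereas Cdkn1b (ENSMUSG00000003031.14, chr6:134920401-134925513, plus strand) had none, 1, 3 and 3 in Epi replicates 1 and 2 and fiber replicates 1 and 2. The covered share of Cdkn1a was 24.3% and 21.3% in Epi and 34.4% and 22.3% in fibers. The compartments overlapped, fiber replicate 2 lying between the Epi libraries, and the means were 22.8% ± 2.15 in Epi and 28.4% ± 8.59 in fibers (SD, n = 2). What differed for Cdkn1a was the position of the island. In Epi it lay inside the gene, from 2025 to 6824 bp from the start in replicate 1 and from 3225 to 7424 bp in replicate 2. In fibers it began at -375 bp in both replicates and ended at 6424 and 4024 bp. Of the 2 promoters shown above, the first was thus covered in both fiber libraries and no Epi library, and the second, rich in CpG, in both fiber libraries and in Epi replicate 1, the island of Epi replicate 2 beginning downstream of it.

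Cdkn1b, whose product p27 is known to accumulate as lens cells leave the cell cycle, had a covered share of 0% and 17.2% in Epi and of 63.5% and 47.6% in fibers. Both fiber values were above both Epi values, with means of 8.60% ± 12.2 and 55.6% ± 11.2 (SD, n = 2). Fiber libraries carried an island over the start, from -2400 to 3599 bp and from -1200 to 799 bp, and islands on each side of the gene. The single island of Epi replicate 2 spanned -1400 to 1199 bp. Its density of 31.5 reads per kb lay between those of the fiber islands over the start, 28.5 and 33.5. Much of the fiber coverage lay in the flanks: within the gene body itself the values were 0% and 23.5% in Epi and 70.4% and 15.6% in fibers, so that without the flanks the compartments overlapped.

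The D-type cyclins were all covered to a higher share in fibers, from different levels. Ccnd1 (ENSMUSG00000070348.5, chr7:144929931-144939925, minus strand), the cyclin that mitogens induce, had the highest covered share of the 10 genes in each of the fiber libraries and in Epi replicate 1: 75.6% and 61.0% in Epi and 97.4% and 100% in fibers. In fibers, 1 island of 21600 bp in replicate 1 and of 24200 bp in replicate 2 ran over the whole gene. In Epi, 2 islands of 16000 and 1600 bp were called in replicate 1, and 4 islands of 2200 to 4400 bp in replicate 2. The Epi replicate 2 islands left the start itself free, the nearest running from -3875 to -676 bp and from 1725 to 4124 bp. The fiber islands of Ccnd1 were longer than 97.8% and 99.1% of the islands of their libraries, and the island of 16000 bp in Epi replicate 1 was longer than 99.5%.

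Ccnd2 (ENSMUSG00000000184.12, chr6:127125162-127152193, minus strand) showed the largest difference of the 10 genes, 62.4 percentage points. Its covered share was 9.72% and 0% in Epi and 65.3% and 69.1% in fibers, means 4.86% ± 6.87 and 67.2% ± 2.66 (SD, n = 2). The fiber libraries each had an island over the start, of 16200 and 22200 bp, and 2 shorter islands farther on, the last of fiber replicate 2 lying past the end of the gene. In Epi replicate 1 the only island, of 3600 bp, lay within the gene at 10193 to 13792 bp, a stretch that the long island of fiber replicate 2 also spanned and that of fiber replicate 1 spanned to 13592 bp. The density of the long islands was close to that of their libraries' medians, 27.8 and 25.4 reads per kb.

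Ccnd3 (ENSMUSG00000034165.16, chr17:47505051-47599691, plus strand) is annotated over 94641 bp because of its outermost start, and its coverage had 2 centers. The covered share was 18.0% and 20.6% in Epi and 25.6% and 25.3% in fibers, a difference of 6.16 percentage points between groups that did not overlap. All 4 libraries had an island at the end of the gene, beginning 89750 and 87750 bp from the start in Epi and 83950 and 86150 bp in fibers. It was the densest Ccnd3 island in each library, with 34.5, 32.8, 33.2 and 38.9 reads per kb. The second RefSeq promoter of Ccnd3, whose start is at 88416 bp, lay within this island in Epi replicate 2 and both fiber libraries, whereas the island of Epi replicate 1 began downstream. At the outermost start, an island was called in Epi replicate 1 and both fiber libraries. That island also held the start of the neighbor Taf8, at -2759 bp, in Epi replicate 1 and fiber replicate 1, so that its reads cannot be assigned to either gene.

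Cdk4 (ENSMUSG00000006728.12, chr10:127063534-127067920, plus strand), the kinase that D-type cyclins activate, was the most alike in the 4 libraries at its start. The covered share was 68.1% and 62.6% in Epi and 89.4% and 88.0% in fibers, means 65.3% ± 3.93 and 88.7% ± 0.983 (SD, n = 2). The island over the start ran from -2933 to 1466 bp and from -1533 to 7466 bp in Epi, and from -3333 to 8866 bp and -3133 to 8866 bp in fibers. The gene body was covered in full in Epi replicate 2 and both fiber libraries, and to 69.9% in Epi replicate 1. Islands of Cdk4 were dense, with 33.1, 35.7, 32.5 and 37.6 reads per kb over all islands of the window, the groups overlapping. Tspan31, which is transcribed toward Cdk4, has its start at 6730 bp, within an island in all 4 libraries and within the same island as the Cdk4 start in 3 of them.

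**Figure D2:**
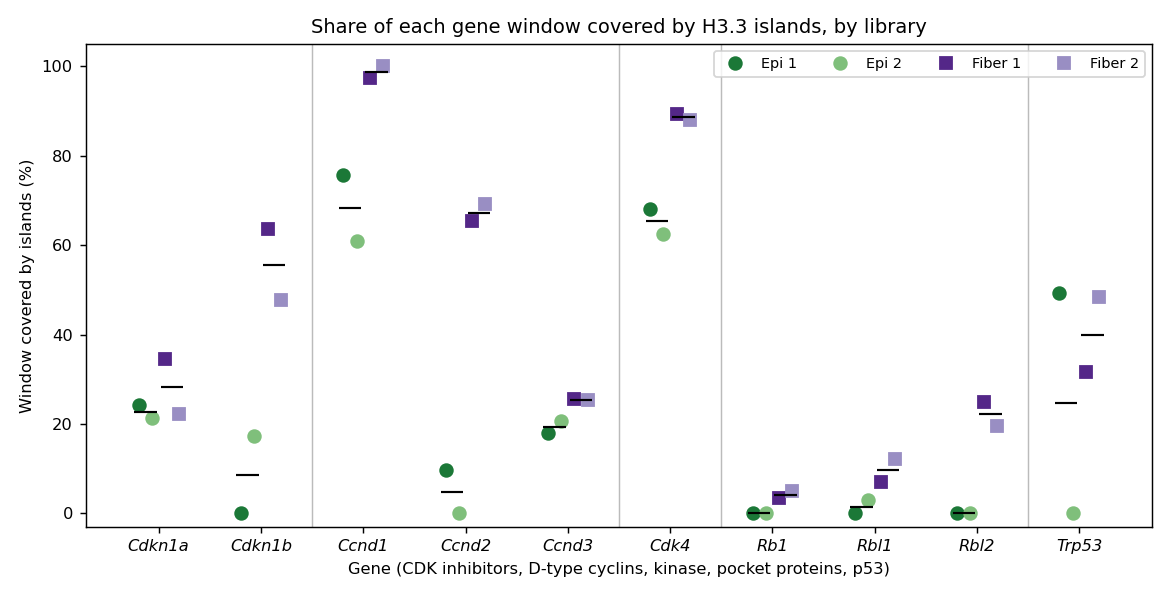
Covered share in percent of the window for each of the 10 genes, with 1 point per library (circles Epi, squares fibers) and the mean of each compartment as a line. Both fiber points lie above both Epi points for 8 genes, and the compartments overlap for Cdkn1a and Trp53.

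The pocket protein genes were covered mainly in fibers. Over the 3 genes, 0 and 1 islands were called in Epi and 6 and 8 in fibers, and the mean covered share was 0% and 0.971% in Epi and 11.7% and 12.2% in fibers. Rb1 (ENSMUSG00000022105.6, chr14:73183673-73325822, minus strand), the retinoblastoma gene, was covered to 0% in both Epi libraries and to 3.37% and 4.95% in fibers. Its fiber islands lay over the start, from -2978 to 1221 bp and from -3578 to 1221 bp, and past the end of the gene, so that 0.860% of the gene body was covered in each fiber library.

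Rbl1 (ENSMUSG00000027641.13, chr2:157145893-157204534, minus strand), itself a target of E2F factors, had a covered share of 0% and 2.91% in Epi and 6.99% and 12.2% in fibers. The island over its start, which held the promoter with the E2F word, had 2000 bp in Epi replicate 2 and 4800 and 3800 bp in fibers. The Epi island was the denser one, with 31.5 reads per kb against 22.7 and 25.8 in fibers. Rbl2 (ENSMUSG00000031666.15, chr8:91070057-91123844, plus strand), whose product p130 is the pocket protein of quiescent cells, had no island in either Epi library and a covered share of 24.8% and 19.4% in fibers. Fiber islands lay over its start, from -856 and -256 bp to 2343 bp, and over the last part of the gene from 43744 and 42944 bp on. A further island in both fiber libraries lay past the end of the gene, from 54144 bp on. The gene body of Rbl2 was covered to 19.2% and 17.4% in fibers. Fibers thus exceeded Epi for all 3 genes, and by the least for Rb1, with 4.16 percentage points of its long window.

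Trp53 (ENSMUSG00000059552.13, chr11:69580359-69591873, plus strand) was the gene with the largest spread in Epi. Its covered share was 49.3% and 0% in Epi and 31.6% and 48.3% in fibers, means 24.6% ± 34.8 and 40.0% ± 11.8 (SD, n = 2). The compartments overlapped, the highest value being that of Epi replicate 1. Without Epi replicate 1 fibers were higher in both libraries, and without Epi replicate 2 Epi was higher than both. Where present, the island over the start ran from -2358 to 2241 bp in Epi replicate 1, and from -1958 to 1641 bp and -3158 to 2841 bp in fibers. The start of Wrap53, transcribed the opposite way, lies at -104 bp and in the same island, so that its reads cannot be assigned to either gene.

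Across the 10 genes, islands were called in the window in both fiber libraries for 10 and in both Epi libraries for 4 (Cdkn1a, Ccnd1, Ccnd3, Cdk4), against 52.3% and 24.7% of all protein-coding genes. The covered share was higher in both fiber libraries than in both Epi libraries for 8 of 10 genes, against 45.0% of all genes, and higher in both Epi libraries for 0 of 10, against 0.670%. The 45.0% are 9868 genes, all of them among the 14147 with an island in any library. A gene without an island could not be called. The median difference, fibers minus Epi, was 18.7 percentage points over the 10 genes, 4.72 over all 21938 genes, and 16.0 over the 14147 genes with an island in any library. With 10389 islands from every library, 2 genes were higher in fibers by read density (Ccnd1 and Cdk4), with Cdkn1a and Ccnd3 then higher in Epi, and 3 by read count (Ccnd1, Ccnd2 and Cdk4). Without the flanks 6 genes were higher in fibers, Cdkn1b and Cdk4 no longer being so. Shares over all genes were not counted with equal numbers of islands or without the flanks. The part of library size in the fiber excess was not tested further.

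Inhibitors were compared with cyclins in covered share, density and island length. The mean covered share of the 2 inhibitors was 12.2% and 19.2% in Epi and 49.0% and 35.0% in fibers, and that of the 3 cyclins 34.4% and 27.2% in Epi and 62.8% and 64.8% in fibers. Inhibitors lay below cyclins in each of the 4 libraries, at differences of -7.99 to -29.9 percentage points. The order of single genes was mixed in both compartments. In Epi, Ccnd1 had 75.6% and 61.0%, and Ccnd2 and Ccnd3 were each below Cdkn1a in both libraries. Cdkn1b had 0% and 17.2% in Epi, and Ccnd3, with 18.0% and 20.6%, was above it in both. In fibers, Ccnd1 and Ccnd2 were above both inhibitors in both libraries. Ccnd3, with 25.6% and 25.3%, was below Cdkn1b in both fiber libraries (63.5% and 47.6%). It was below Cdkn1a in fiber replicate 1 (34.4%) and above it in fiber replicate 2 (22.3%). Covered bp, in windows of 19752 and 15113 bp for the inhibitors and of 19995, 37032 and 104641 bp for the cyclins, came to 2400, 3400, 8200 and 5800 bp per inhibitor gene against 12508, 11267, 23490 and 24026 bp per cyclin gene.
The covered share of the inhibitors was 26.3 percentage points higher in fibers than in Epi (SD 9.07 over the 4 pairings of a fiber with an Epi library; exact permutation test, two-sided, n = 2 against 2, p = 0.33, the smallest p this design allows). That of the cyclins was 33.0 percentage points higher (SD 4.33; exact permutation test, n = 2 against 2, p = 0.33). The difference of the inhibitors minus that of the cyclins was -6.69 percentage points (SD 12.4; exact permutation test, n = 2 against 2, p = 0.67), smaller than the spread between the pairings. It was -13.5 (SD 1.83; exact permutation test, n = 2 against 2, p = 0.33) when the pocket proteins and Trp53 were counted with the inhibitors and Cdk4 with the cyclins. The pairings share libraries, so this SD is no error of independent replicates. Rb1, Rbl1 and Rbl2 entered with 4.16, 8.16 and 22.1 percentage points, in windows of 152150, 68642 and 63788 bp. The part of window length was not tested. For the 2 inhibitors and 3 cyclins alone, the difference lay at -13.8 without Epi replicate 1 and -14.7 without fiber replicate 1. It lay at 0.466 without Epi replicate 2 and 1.34 without fiber replicate 2. The difference of the inhibitors came mainly from Cdkn1b, with 47.0 percentage points against 5.57 for Cdkn1a. Within the gene bodies alone it was 19.4 percentage points with an SD of 23.5, below the spread between the pairings (exact permutation test, two-sided, n = 2 against 2, p = 0.67). With equal numbers of islands chosen by read density, the inhibitors turned to -7.42 percentage points and the cyclins came to 8.50.

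Read density within islands differed between the compartments by less than the spread between the pairings. It was 27.5 and 29.1 reads per kb in Epi and 28.3 and 28.9 in fibers for the inhibitors, and 29.3 and 30.4 in Epi and 30.2 and 29.9 in fibers for the cyclins. The ratio of fibers to Epi was 1.01 for the inhibitors (SD 0.0354; exact permutation test, two-sided, n = 2 against 2, p = 1) and 1.01 for the cyclins (SD 0.0223; exact permutation test, two-sided, n = 2 against 2, p = 1). As groups, inhibitors were again below cyclins in each library, with a ratio between 0.936 and 0.964. Single genes did not all follow that order. In fibers, Ccnd2 had 26.9 and 26.2 reads per kb, below Cdkn1a (27.9 and 26.8) and Cdkn1b (28.5 and 29.8). Ccnd1 and Ccnd3 were above both inhibitors in both fiber libraries. In Epi replicate 2, Cdkn1b (31.5) was above Ccnd3 (29.5) and below Ccnd1. In Epi replicate 1, the island of Cdkn1a alone stood for the inhibitors. Among the 4 genes with an island in every library, density was higher in both fiber libraries for 2, Ccnd1 and Ccnd3, against 30.8% of 5246 such genes, and higher in both Epi libraries for 0, against 16.3%. Ccnd1 had 29.6 and 32.0 reads per kb in Epi and 34.5 and 33.1 in fibers.

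Island length separated the groups of genes more than density did. The mean island of the inhibitors was 4800 and 3400 bp long in Epi and 5100 and 3550 bp in fibers, a ratio of 1.05 (SD 0.313; exact permutation test, two-sided, n = 2 against 2, p = 0.67). That of the cyclins was 5714 and 3756 bp long in Epi and 10371 and 8800 bp in fibers, a ratio of 2.02 (SD 0.545; exact permutation test, two-sided, n = 2 against 2, p = 0.33). The cyclins had 7 and 9 islands in Epi and 7 and 9 in fibers, totals in which Ccnd1 went from 2 and 4 to 1 and 1 and Ccnd2 from 1 and 0 to 3 and 3. The inhibitors had 1 and 2 islands in Epi and 4 and 4 in fibers. The length ratio of the inhibitors turned from 1.27 and 1.24 without Epi replicate 1 or fiber replicate 2 to 0.901 and 0.866 without Epi replicate 2 or fiber replicate 1. The median island of the whole library was 3800 and 3000 bp long in Epi and 5200 and 4000 bp in fibers.

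**Figure D3:**
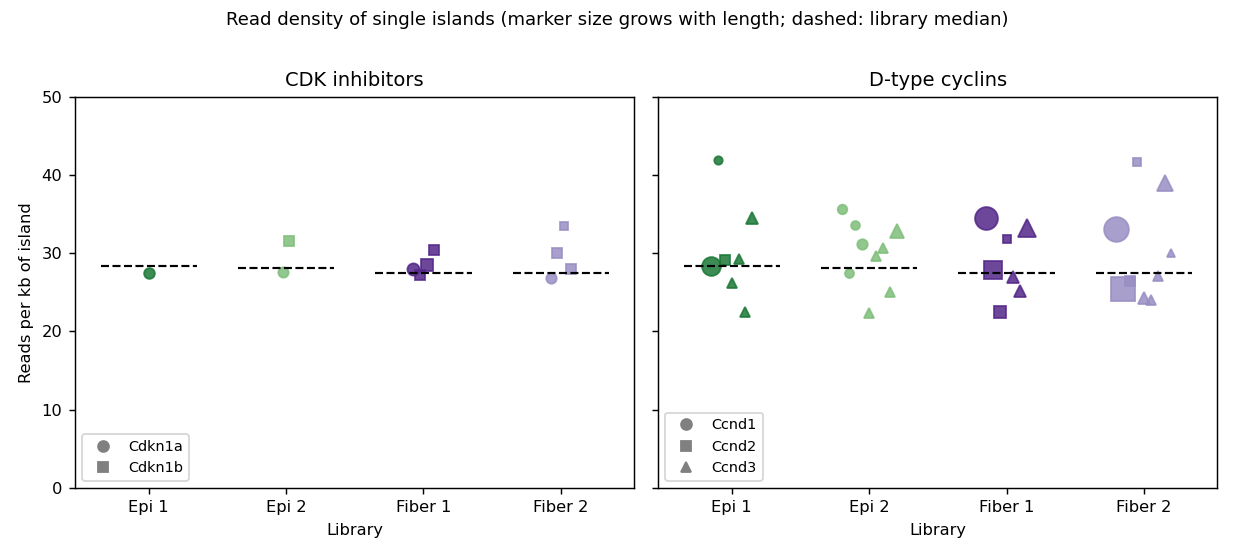
Reads per kb of each island in the windows of the 2 CDK inhibitors (left) and the 3 D-type cyclins (right), by library, with the marker growing with island length and a dashed line at the library's median over all islands. Densities lie around the library medians of 27.4 to 28.3 in Epi and fibers alike, and the longest markers are the fiber islands of Ccnd1 and Ccnd2.

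Coverage was also described for a list of 31 other genes of the pathway. The covered share was higher in both fiber libraries for 23 of the 31 genes, 74.2%, against 45.0% of all protein-coding genes, and in both Epi libraries for 0, against 0.670%. The 45.0% are 9868 genes, out of 14147 with an island in any library. The median difference was 17.0 percentage points, close to the 16.0 of all genes with an island in any library. By role, this held for 2 of 5 other CDK inhibitors, 3 of 5 other kinases and cyclins of this phase, 8 of 10 E2F and DP factors, 5 of 6 members of the DREAM and MuvB complexes and 5 of 5 regulators of p53 and of protein degradation. The start was in an island in both fiber libraries for 13 of the 31 genes, 41.9%, against 31.4% of all genes, and in both Epi libraries for 2, 6.45%, near the 6.83% of all genes.

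The largest differences were those of Cks1b, a cofactor of the ligase that degrades p27, with 76.9 percentage points, Lin37, a MuvB subunit, with 63.1, E2f1, the activator that Rb1 binds, with 61.0, Rbbp4, a histone chaperone found in several chromatin complexes, with 47.4, and Tfdp1, a partner of E2F factors, with 45.3. The starts of E2f1 and Tfdp1 lay in an island in fiber replicate 2 alone. Starts of neighboring genes were not searched for in these windows. Cdkn1c, the inhibitor p57 that lens fibers are known to express, had a covered share of 23.6% and 74.3% in Epi and 85.4% and 42.5% in fibers, and the compartments overlapped. Its start lay in an island in Epi replicate 2 and in both fiber libraries. Cdkn2b, an inhibitor of Cdk4, Ccna2, a cyclin of the replication and later phases, and E2f7 and E2f8, repressors of E2F targets in dividing cells, had no island in any library.

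**Figure D4:**
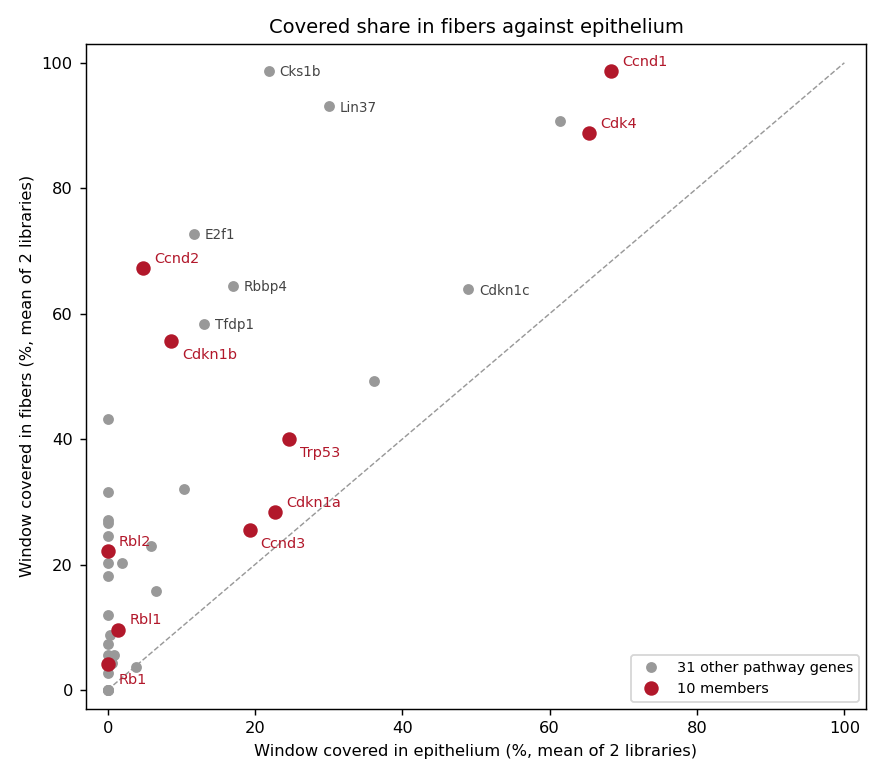
Mean covered share of 2 fiber libraries against that of 2 Epi libraries, in percent of the window, with 1 point per gene (red for the 10 genes, grey for the 31 other pathway genes) and a dashed line of equal shares. All 10 red points lie above the line, Ccnd2 farthest from it with 62.4 percentage points, and 4 grey genes without an island sit together at 0.

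Among all other protein-coding genes, those most like Cdkn1a in covered share were Map3k14, Shisal1 and Wnt9b, at distances of 4.11, 4.19 and 5.01 percentage points (Euclidean, over 4 libraries). Those most like Cdkn1b were Fam243, Dedd and B4galt3, at 4.92, 4.97 and 5.04. Dedd, for instance, had 0% and 17.3% in Epi and 58.6% and 48.3% in fibers. A likeness over 4 values says nothing of shared control.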

How the data were processed

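H3.3 ChIP-seq islands of 2 lens epithelium and 2 lens fiber libraries were used. Reads (75 nt, single-end) were aligned by the authors to mm10 (GRCm38) with BWA aln and samse at default settings. SICER2 was run per library, with 200 bp windows, 600 bp gaps and an FDR of 0.01 as the file names show. Each deposited list gives island positions and a count of reads, not normalized by the authors. Versions, removal of duplicates and use of the pooled input are not given in the sources used here. The bisulfite libraries and the input were not analysed here.

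Gene bodies of GENCODE vM21 with 5 kb on each side were intersected with islands sharing at least 1 bp. Covered share is covered bp over window length, reads per kb the summed reads over the summed length of whole islands, and a start that of the outermost transcript. A gene called higher had both libraries of one compartment above both of the other. Group values were compared by exact two-sided permutation over 6 splits. Depth is unknown, and 2 libraries per compartment limit the precision. Coverage was checked against bedtools 2.31.1 (identical in 21938 of 21938 windows per library) and tested on simulated data, in Python 3.11.15 with numpy 2.4.6 and matplotlib 3.10.9.

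The members, lists and tests were chosen with earlier results of these data known. Named genes were the 10 members and, of the 31 pathway genes, Cdkn1c, the 5 with the largest difference, those without any island, neighbors whose start lies in an island of a member, and the 3 genes most like each inhibitor. Alternatives changed the flank, the islands kept, the overlap, the groups and the libraries. The promoter counts and the counts of starts were chosen after seeing the data.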

Additional observations from a re-analysis of the deposited data

How the results depend on the processing

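Of 126 alternative values, 101 stayed within the spread between pairings or within 1.5 times the count. Another 24 moved further and 1 was counted as a change of direction. The cause was not tested. Signs also changed among values not counted so. The main difference of inhibitors minus cyclins, -6.69 percentage points, became 11.8 with islands of at least the median density. It was 0.466 without Epi replicate 2 and 1.34 without fiber replicate 2. The length ratio of the inhibitors, 1.05 in the main setting, fell to 0.610 with equal numbers by density. Where only a part of the islands was kept, shares over all genes were not counted. Taking 10389 islands from every library moved most. Chosen by read density, they gave 6 genes with an island in both fiber libraries, 2 genes higher in fibers and 3 starts in fiber islands. The inhibitors came to -7.42 percentage points (the 1 value counted as a change of direction) and the cyclins to 8.50. Density ratios were 1.13 and 1.13, and the length ratio of the inhibitors was 0.610. Chosen by read count, the islands gave 4, 3 and 4 genes, and 2.84 and 25.3 percentage points. They also gave -22.5 between the groups' differences and a length ratio of 3.20 for the cyclins. Islands of at least the median density gave 5 genes higher in fibers, 5 and 0 starts in fibers and Epi, 19.3 percentage points for the cyclins, 11.8 between the groups' differences and a density ratio of 1.06 for the cyclins. In these 2 settings (median density, read count) the density and length ratios of the inhibitors could not be computed. Wider groups, 6 genes that restrain against 4 that drive division, gave 17.1 percentage points and a density ratio of 0.942 for the former, and -13.5 (SD 1.83) between the groups' differences. These were -15.9 (SD 9.47) with equal numbers by density and -8.97 (SD 8.58) with a flank of 10 kb, all 3 larger than their SD. The exact permutation test (n = 2 against 2) gave p = 0.33, 0.33 and 0.67, the last as in the main setting. Gene bodies alone gave 6 genes higher in fibers and 19.4 percentage points (SD 23.5) for the inhibitors. Leaving out each library in turn gave 4 to 6 genes with an island in Epi and 10 in fibers, 8 to 10 genes higher in fibers, 1 to 4 starts in Epi islands and 10 in fiber islands, 19.3 to 33.3 percentage points for the inhibitors, 29.3 to 36.6 for the cyclins and -14.7 to 1.34 between them, density ratios of 0.981 to 1.04 and 0.989 to 1.03, and length ratios of 0.866 to 1.27 and 1.68 to 2.55.

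Labels of both compartments share replicate numbers but no source, and the correlation of their deviations was 0.00635 over 14147 genes. With 2 libraries per compartment, this value cannot decide whether libraries of the same number share a source. With a replicate block, the differences were 26.3 (exact permutation test, n = 2 pairs, p = 0.5, the smallest possible), 33.0 and -6.69 percentage points, density ratios 1.01 and 1.01, and length ratios 1.05 and 2.08.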
